A study of Caenorhabditis elegans with 48 samples.

Results

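The proteasome subunit genes of Caenorhabditis elegans were followed through starvation-induced L1 arrest. The list held 32 genes chosen by name from the annotation and not by their values: 14 genes of the 20S core (pas-1 to pas-7 and pbs-1 to pbs-7) and 18 genes of the 19S cap (rpt-1 to rpt-6, rpn-1, rpn-2, rpn-3, rpn-5, rpn-6.1, rpn-7 to rpn-13). All 32 were found among the 46911 genes counted, and all 32 passed the filter on low counts, with 80 to 6176 counts per gene and library. Messenger RNA was sequenced from whole starved L1 larvae of 4 strains under 3 conditions, with 4 replicates in each of the 12 groups (48 libraries).

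Peft-3::TIR1; ama-1::AID expresses the plant F-box protein TIR1 in the soma from the eft-3 promoter, and its RNA polymerase II large subunit AMA-1 carries an auxin-inducible degron (allele ama-1(syb1513)), so that auxin leads to its degradation there (the somatic degron strain below). Pgld-1::TIR1; ama-1::AID carries the same tagged AMA-1 with TIR1 in the germline from the gld-1 promoter (the germline degron strain). The strains Peft-3::TIR1 (somatic control) and Pgld-1::TIR1 (germline control) express TIR1 alone, with untagged AMA-1. Larvae were taken at 36 h of arrest, before treatment, or at 132 h of arrest after auxin (100 µM) or its vehicle ethanol had been added at 36 h. All 132 h groups had received vehicle and the 36 h groups had not. Differences between 36 h and 132 h, described below as changes over time, therefore cannot be told apart from effects of the vehicle. Each genotype was 1 strain, each library came from a pool of larvae, and starvation was shared by all 12 groups. In whole larvae, fewer cells of a type and less RNA per cell cannot be told apart.

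The proteasome is the protease of the cytosol and nucleus that degrades proteins marked with ubiquitin. Its core is a stack of rings. The alpha subunits (pas) form the outer rings that gate the chamber, and the beta subunits (pbs) form the inner rings that hold the cutting sites. The cap sits on the core, with a ring of ATPases (rpt) that unfold substrates and non-ATPase subunits (rpn) that bind ubiquitin chains, remove them or hold the cap together. In C. elegans the transcription factor SKN-1A, which is activated through the protease DDI-1 and the deglycosylase PNG-1, raises proteasome subunit genes when proteasome function is impaired.

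Libraries held 5755041 to 18052333 counts on genes (median 11040338), and ERCC spike-ins, which were added in proportion to total RNA, made up 1.13% to 8.33%. Proteasome subunit genes took 0.153% to 0.898% of gene counts. Reads outside annotated genes were 1.084% to 1.53% of gene counts at 36 h and 1.62% to 5.07% at 132 h, without overlap, and their part in the results over time was not tested. A pair of libraries stood apart. The first was the fourth replicate of the somatic degron strain at 132 h with auxin. It had the highest spike-in percent (8.33%), the highest share on proteasome subunit genes (0.898%) and a summed level of oocyte and eggshell markers (6 of 6 listed genes found) of 1277 CPM (counts scaled to a gene total of 1e+06), with 241 CPM or less in any other library. The other auxin libraries of that strain also lay above all its ethanol libraries in this sum. The second was the fourth replicate of the germline control at 132 h with ethanol, with 6.41% spike-ins against 1.69% to 2.09% in its group, and its share on proteasome subunit genes was 0.449% against 0.365% to 0.435%. Below, the library that stood apart is the first of them unless the germline control is named. Marker lists for other tissues also moved with the groups. Summed muscle markers (4 of 4 listed genes found) lay between 9472 and 18661 CPM at 36 h and between 1230 and 4630 CPM at 132 h, and summed germ line markers (5 of 5 found) between 12.7 and 82.4 CPM at 36 h and between 92.9 and 629 CPM at 132 h. The muscle sum followed unc-54, its most counted gene, while hlh-1 of that list rose with ethanol. In the somatic degron strain hlh-1 had 33, 68, 121 and 28 raw counts at 36 h and 195, 145, 168 and 118 at 132 h with ethanol. The part of these shifts in the results below was not tested.

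In every strain, the share of counts on proteasome subunit genes was higher late in arrest. The 16 libraries at 36 h held 0.153% to 0.219% (median 0.176%), and the 32 libraries at 132 h held 0.332% to 0.898% (median 0.433%), or at most 0.508% without the library that stood apart. The 2 ranges did not overlap. Core genes went from a median of 0.0742% to 0.183%, and cap genes from 0.103% to 0.249%.

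**Figure D1:**
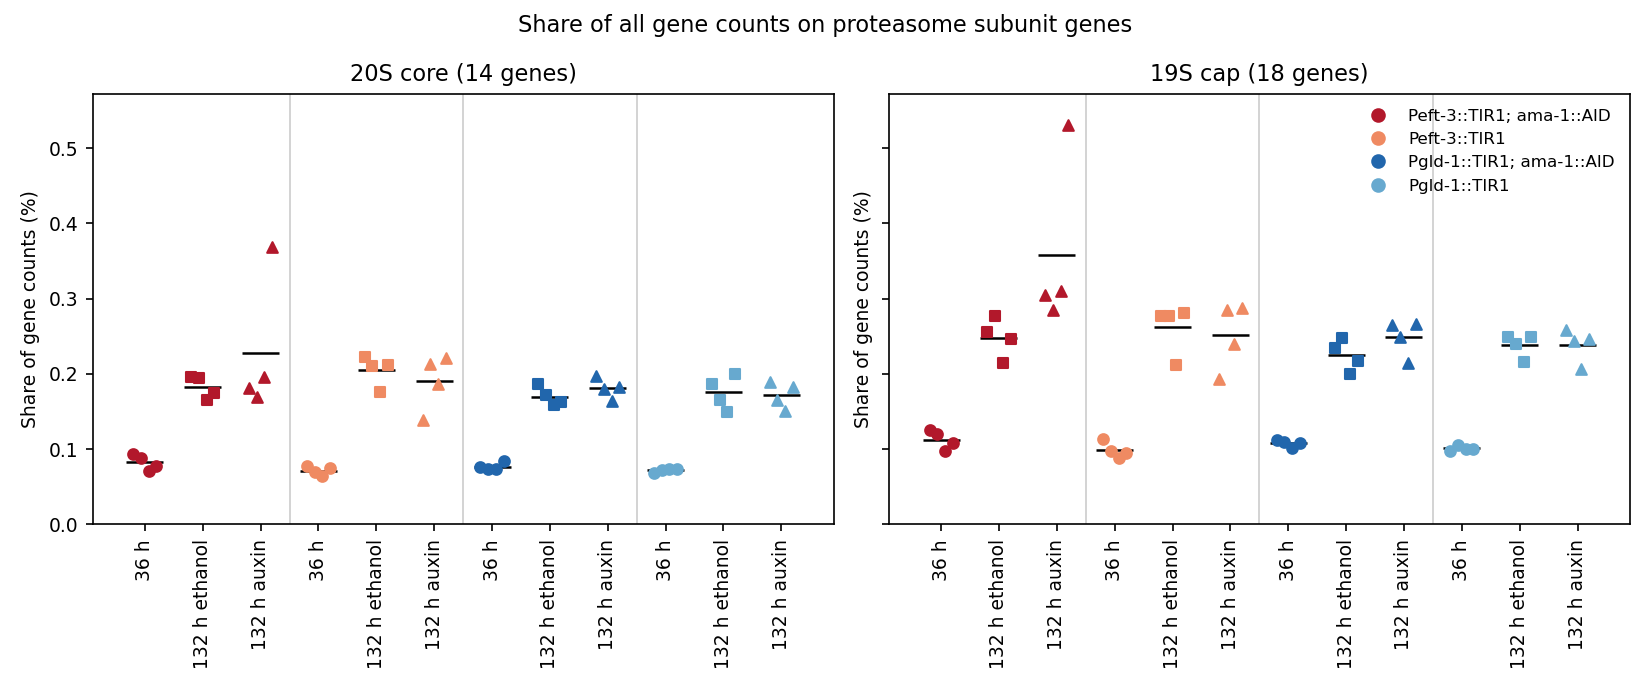
Share of all gene counts on the 14 core genes (left) and the 18 cap genes (right), in percent, for each of the 48 libraries by strain and condition. Points are libraries and bars are means over 4 replicates. All 132 h libraries lie above all 36 h libraries, and the fourth auxin replicate of the somatic degron strain lies above the other 47.

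The first question was how proteasome subunit mRNAs differed between 36 h and 132 h of arrest without auxin, from the ethanol groups. The paper reports that the somatic degron strain grew slower without auxin than the somatic control did with it. It proposes some degradation of AMA-1 without auxin, so AMA-1 may not be intact in the ethanol group of that strain. Each gene was tested with edgeR's quasi-likelihood test on counts scaled by the upper quartile, with a covariate W1 estimated from the spike-ins, and was called at a Benjamini-Hochberg adjusted p under 0.05 over the 15549 protein-coding genes tested. Of the 32 genes, 29 rose in the somatic degron strain (background 15.2% of genes tested), 29 in the somatic control (background 20.5%), 26 in the germline degron strain (background 17%) and 25 in the germline control (background 18.8%). None fell in any strain (backgrounds 15.1%, 23.9%, 17.1% and 19.4%). Over the 32, log2 fold changes had medians of 0.85, 1.06, 0.71 and 0.85 in that order, beside −0.01, −0.11, −0.00 and −0.01 over all genes tested. In the somatic control W1 was −0.020 to 0.167 at 36 h and −0.125 to −0.069 with ethanol, without overlap. It was 0.013 to 0.212 and −0.167 to −0.021 in the somatic degron strain, also without overlap. In the germline degron strain it was 0.058 to 0.183 and −0.175 to 0.014, again without overlap. In the germline control the ranges overlapped (−0.052 to 0.127 and −0.163 to 0.311), with replicate 4 with ethanol at 0.311. The fit therefore cannot fully part W1 from time. With W1 estimated in the compared libraries alone, 13 genes were called higher in the somatic control (background 8.7%).

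Scaling to the upper quartile or to spike-ins changed the size of this rise over the list and not its direction. Spike-ins were added in proportion to total RNA, so values on their scale, here and below, are per total RNA and not per larva. The paper reports that equal numbers of larvae yielded less total RNA late in arrest. A rise per larva would therefore be smaller than the rise on the spike-in scale, and it was not computed here. The upper-quartile size divided by total gene counts was 0.663 to 0.781 at 36 h and 0.758 to 1.25 at 132 h, so the rise is larger in plain CPM than in the fitted values. With libraries scaled to spike-ins, the median over all genes rose by 0.85, 0.84, 0.78 and 0.46 and that of the proteasome subunit genes by 1.69, 1.94, 1.52 and 1.30, with 31, 32, 30 and 23 genes called higher and none lower (backgrounds for higher 31.8%, 35.4%, 30% and 19.4%, and for lower 3.38%, 6.07%, 4.01% and 5.66%). The values of the germline control lean on replicate 4 with ethanol, which had 6.56 proteasome subunit counts per 100 spike-in counts, within the 36 h range of all strains (5.32 to 10.6), against 18.99 to 24.7 in the other 3. Without it, 30 genes were called higher and none lower on the spike-in scale (backgrounds 29.7% and 4.03%), with a median of 1.59 beside 0.76 over all genes. On the upper-quartile scale 22 genes were called higher without it and none lower (backgrounds 14.9% and 14.8%), with a median of 0.83.

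Core and cap had similar medians. Over core genes the median log2 fold change was 0.87, 1.06, 0.81 and 0.86 in the somatic degron strain, the somatic control, the germline degron strain and the germline control, and over cap genes 0.83, 1.05, 0.69 and 0.84. All 6 rpt genes, which encode the ATPase ring, were called higher in all 4 strains, within 0.61 to 1.27. Of the 7 pas genes, 6 were called higher in every strain. The pbs genes were the most uneven family, with 6, 7, 5 and 4 of 7 called, and of the 12 rpn genes 11, 10, 9 and 9 were called.

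**Figure D2:**
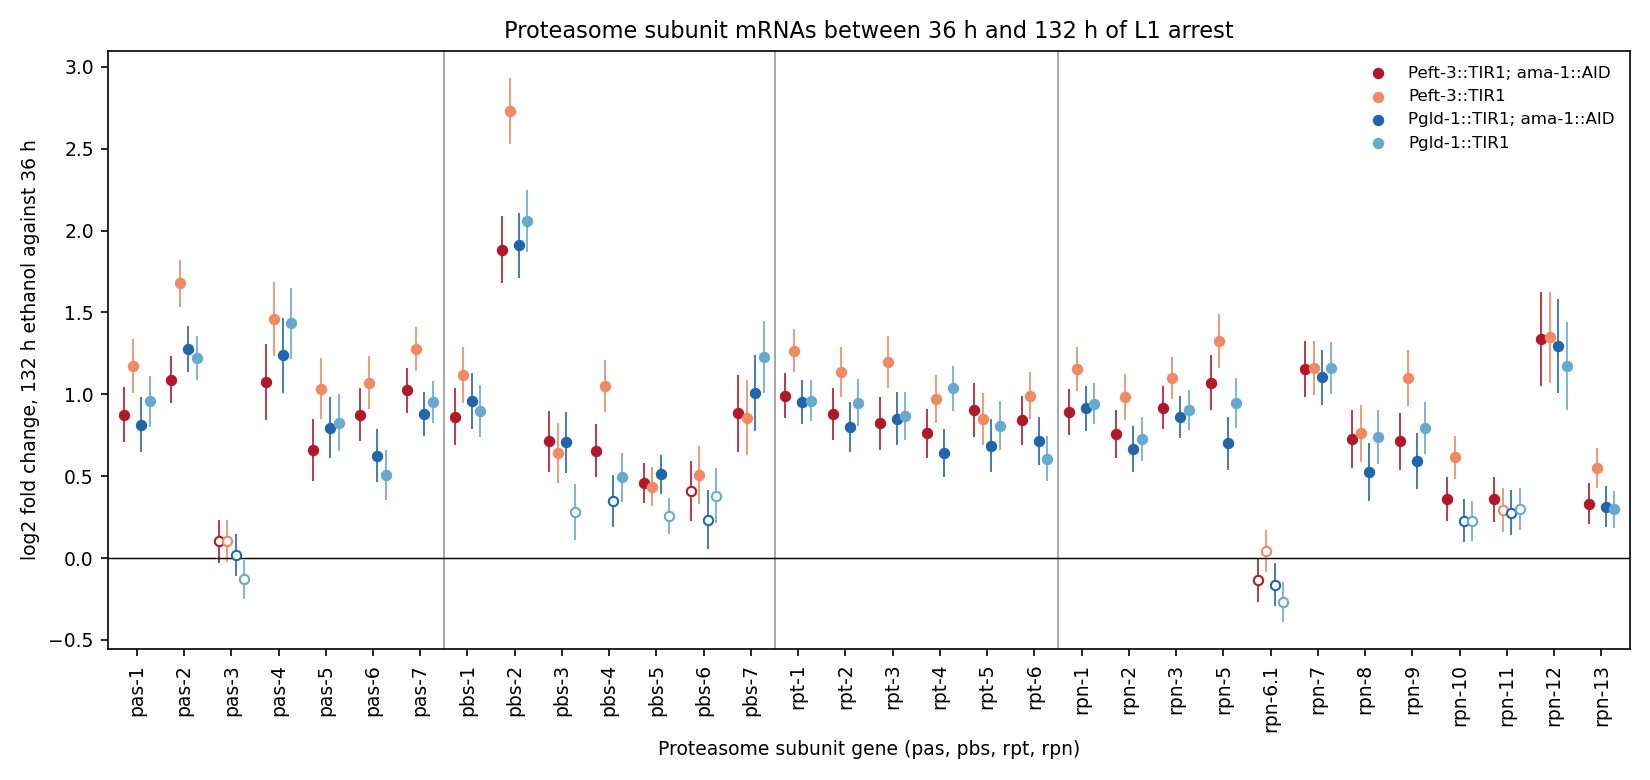
Log2 fold change at 132 h with ethanol against 36 h for the 32 proteasome subunit genes in 4 strains (colours), with standard errors. Filled points passed an adjusted p under 0.05 and open points did not, and vertical lines part the pas, pbs, rpt and rpn families. pbs-2 stands highest in every strain, and pas-3 and rpn-6.1 lie near 0.

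Of the 32, 24 were called higher in all 4 strains, 3 in 3 strains (pbs-3, pbs-4 and pbs-5), 1 in 2 strains (rpn-10), 2 in 1 strain (pbs-6 and rpn-11) and 2 in none (pas-3 and rpn-6.1). Across the 32 genes, Pearson's r between the log2 fold changes of any 2 strains was 0.91 to 0.95 and Spearman's rho 0.83 to 0.89. These fits share no library between strains, although they share the spread estimate and W1, and genes are not independent replicates. Spearman's rho between fold change and exon length was −0.12 to 0.06 across the 32 genes.

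pbs-2 encodes the beta subunit with trypsin-like activity and lies on chromosome I (12967216 to 12968280, minus strand, WBcel235). It had the largest rise of the 32 genes in all 4 strains. In the somatic control its normalized CPM (CPM with the upper-quartile library size in place of the total) was 73.6, 69.6, 70.2 and 56.4 at 36 h and 475, 410, 394 and 381 at 132 h with ethanol. In the somatic degron strain it was 93.5, 89.7, 68.6 and 80.0 at 36 h and 260, 329, 271 and 258 with ethanol. The libraries of the 2 times did not overlap in either strain. The log2 fold change was 2.73 (SE 0.20, edgeR adjusted p = 1.13e-15) in the somatic control and 1.88 (SE 0.20, adjusted p = 1.97e-10) in the somatic degron strain, and 1.91 and 2.06 in the germline degron strain and the germline control.

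At the other end stood pas-3, which encodes an alpha subunit (chromosome I, 5105110 to 5106048, minus strand), and rpn-6.1, which encodes a cap subunit that clamps cap to core (chromosome III, 6959110 to 6962001, minus strand). They were singled out after their values had been seen. In the somatic control, pas-3 had a normalized CPM of 155, 167, 143 and 174 at 36 h and 172, 162, 164 and 166 at 132 h with ethanol, and the 2 groups overlapped. rpn-6.1 had 133, 126, 105 and 115 at 36 h and 132, 120, 107 and 128 with ethanol, also overlapping. Their log2 fold changes over the 4 strains lay between −0.13 and 0.10 for pas-3 and between −0.27 and 0.04 for rpn-6.1, with edgeR adjusted p from 0.435 to 0.937 and from 0.0795 to 0.812. In the germline control the 4 ethanol libraries of rpn-6.1 (101 to 116) lay just below the 4 at 36 h (116 to 169). These values are on the upper-quartile scale. On the spike-in scale, which is per total RNA and not per larva, all 32 genes, these included, were called higher in the somatic control.

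The ratio between the highest and the lowest gene was smaller at 132 h with ethanol than at 36 h in 3 of the 4 strains. Levels between genes are compared here as CPM per kilobase of exon. At 36 h, rpn-12, a cap subunit, was lowest in every strain (16.03 to 18.03 CPM per kilobase, group means) and pas-3 highest (127 to 135), and the highest was 7.46 to 8.15 times the lowest. At 132 h with ethanol, pbs-2 was highest in every strain (260 to 411 CPM per kilobase), and the highest was 4.88 times the lowest in the somatic degron strain, 5.13 in the germline degron strain, 5.73 in the germline control and 7.72 in the somatic control. The median core gene was above the median cap gene in all 12 groups, for example 49.4 against 32.7 CPM per kilobase in the somatic control at 36 h and 133 against 89.5 with ethanol at 132 h.

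The next comparison asked what loss of somatic AMA-1 from 36 h on did to these mRNAs. The targeted gene checks the labels only in part, since the degron acts on the protein. ama-1 mRNA was 1212, 1074, 1224 and 777 normalized CPM with auxin and 277, 533, 457 and 578 with ethanol in the somatic degron strain, a log2 fold change of 0.96 (SE 0.26, edgeR adjusted p = 0.00402).

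On the upper-quartile scale with W1 in the fit, 15 of the 32 genes were called higher in this strain with auxin (background 13.3%) and 1 lower (background 16.1%). The shares of counts overlapped, at 0.485%, 0.454%, 0.505% and 0.898% with auxin and 0.450%, 0.472%, 0.380% and 0.421% with ethanol. The median log2 fold change was 0.45, beside 0.11 over all genes tested. The genes called higher comprised 4 core genes, all of the alpha rings (pas-1, pas-3, pas-5 and pas-6), and 11 cap genes (rpt-2, rpt-3, rpt-4, rpt-6, rpn-1, rpn-2, rpn-6.1, rpn-8, rpn-9, rpn-10 and rpn-11), by 0.42 to 1.77. Among the cap genes are rpn-10, which encodes a ubiquitin receptor (0.77), and rpn-11, which encodes the deubiquitinase (0.68). Without the library that stood apart, 14 of the 16 calls remained (13 higher, background 14.0%, and 1 lower, background 15.9%), rpt-6 and rpn-9 were lost, and the median was 0.36. W1 was higher in every auxin library than in every ethanol library of this strain, so the fit cannot fully part W1 from auxin. With W1 estimated in the compared libraries alone, 2 genes were called higher (background 3.85%) and none lower (background 4.02%). In the library that stood apart, markers of the oocyte and eggshell were also highest. Their sum was higher in every auxin library than in every ethanol library of this strain. Leaving out the library that stood apart therefore does not remove that shift. Early embryo markers, which had few counts, were also higher in every auxin library. In the group the summed germ line markers were 166 to 629 CPM with auxin against 125 to 190 CPM with ethanol. Gut markers were 246 to 418 against 887 to 1287 CPM and muscle markers 1230 to 2175 against 2945 to 4630 CPM. The gut sum followed act-5, with 368, 456, 1018 and 779 raw counts with auxin against 12575, 6043, 8831 and 9000 with ethanol. ifb-2 of the same list did not fall (1884, 2366, 3105 and 3441 against 1941, 1623, 2425 and 1935). Reads outside annotated genes were 2.93% to 5.07% of gene counts with auxin and 1.62% to 2.31% with ethanol, without overlap. The part of these values in the result was not tested.

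The direction depends on the scale. With libraries scaled to spike-ins, the median over all genes fell by 1.25 on the log2 scale with auxin and that of the proteasome subunit genes by 0.88, with 0 called higher and 19 lower (backgrounds 2.67% and 52.4%). Without the library that stood apart, the medians were −1.10 and −0.79, with 0 higher and 12 lower (backgrounds 2.28% and 43.4%). The lowest, median and highest proteasome subunit counts per 100 spike-in counts were 9.88, 11.1 and 17.1 with auxin and 18.05, 22.7 and 27.7 with ethanol.

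**Figure D3:**
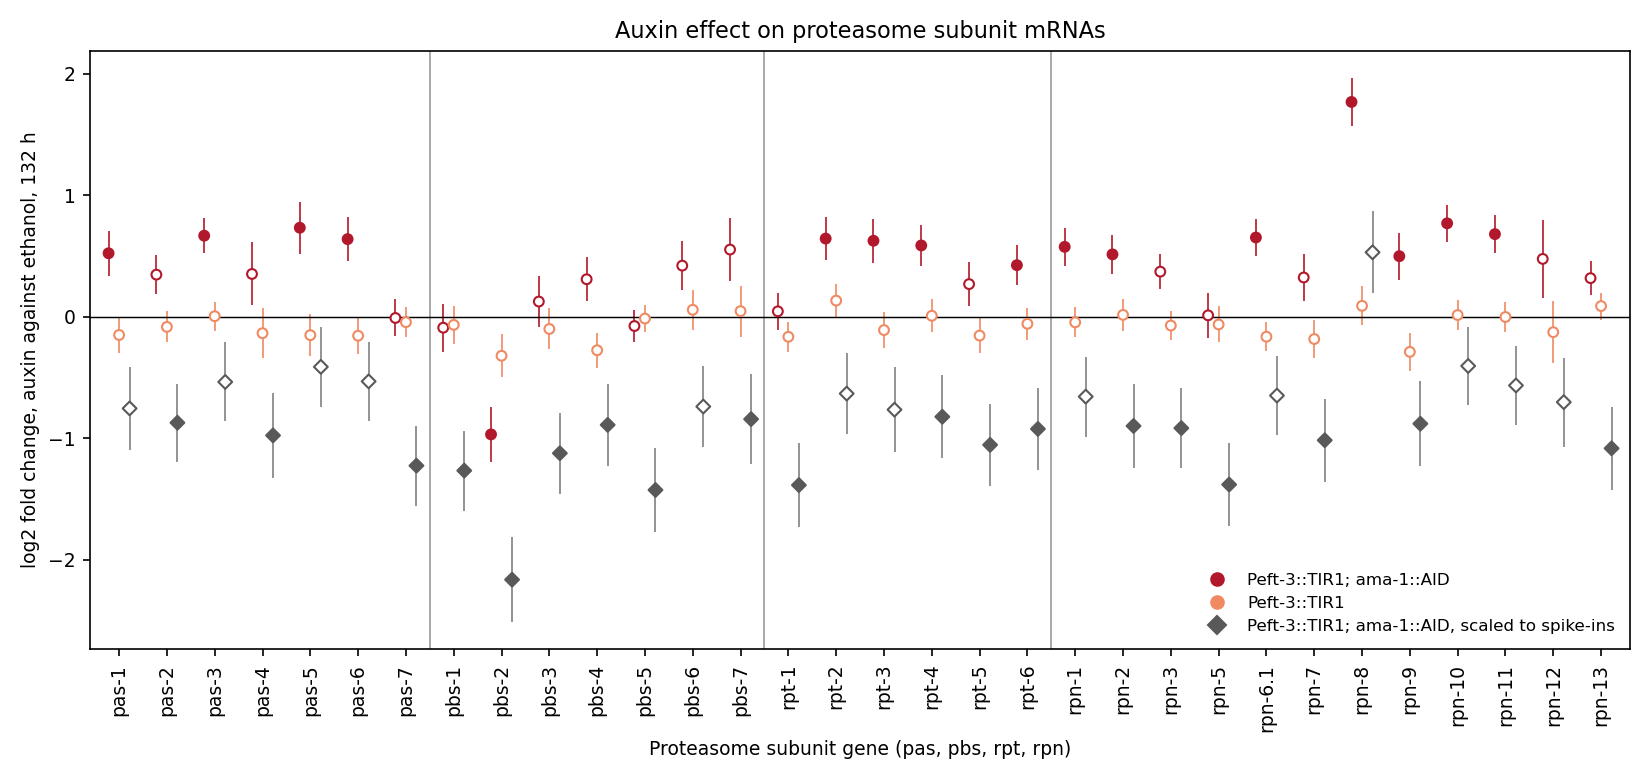
Log2 fold change with auxin against ethanol at 132 h, with standard errors, for the 32 genes in the somatic degron strain (red), in the untagged somatic control (orange) and in the somatic degron strain scaled to spike-ins (grey diamonds). Filled symbols passed an adjusted p under 0.05. On the upper-quartile scale rpn-8 stands highest and pbs-2 is the gene called lower, and on the spike-in scale rpn-8 is the gene above 0.

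rpn-8 encodes the cap subunit that pairs with the deubiquitinase RPN-11, and lies on chromosome I (4175319 to 4177271, plus strand). With auxin in the somatic degron strain its normalized CPM was 251, 290, 243 and 239, and with ethanol 84.9, 70.7, 76.9 and 61.4. The 2 groups did not overlap, and the auxin libraries were above every library of the other 11 groups, the highest of which was 84.9. The log2 fold change was 1.77 (SE 0.20, edgeR adjusted p = 1.06e-09), and 1.79 without the library that stood apart. It was the largest among the 32 genes and the sole positive value on the spike-in scale (0.53, adjusted p = 0.179). In the somatic control it was 64.1, 70.9, 71.9 and 72.7 with auxin and 70.3, 66.4, 57.4 and 68.4 with ethanol, overlapping. rpn-8 overlaps no other annotated gene.

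pbs-2, which had risen most over time, was the gene called lower. With auxin its normalized CPM was 159, 134, 129 and 241, against 260, 329, 271 and 258 with ethanol, with no overlap. The log2 fold change was −0.97 (SE 0.23, edgeR adjusted p = 0.000772), −1.10 without the library that stood apart and −2.17 (adjusted p = 4.1e-07) on the spike-in scale, the lowest of the 32 genes on each scale. In the somatic control it was 180, 424, 327 and 413 with auxin and 475, 410, 394 and 381 with ethanol, overlapping, with replicate 1 the lowest of the auxin group. The same gene was lower in the somatic degron strain than in the somatic control with ethanol at 132 h, by −0.56 (SE 0.18, adjusted p = 0.0287). It was the sole gene of the 32 called in that comparison (background 5.90% lower and 6.63% higher), and the call was lost without ethanol replicate 1, 3 or 4 of the former or replicate 1 of the latter (0 genes called), while 2 genes were called without replicate 2 of the former. On the spike-in scale 0 genes were called (backgrounds 0.225% lower and 0.154% higher).

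**Figure D4:**
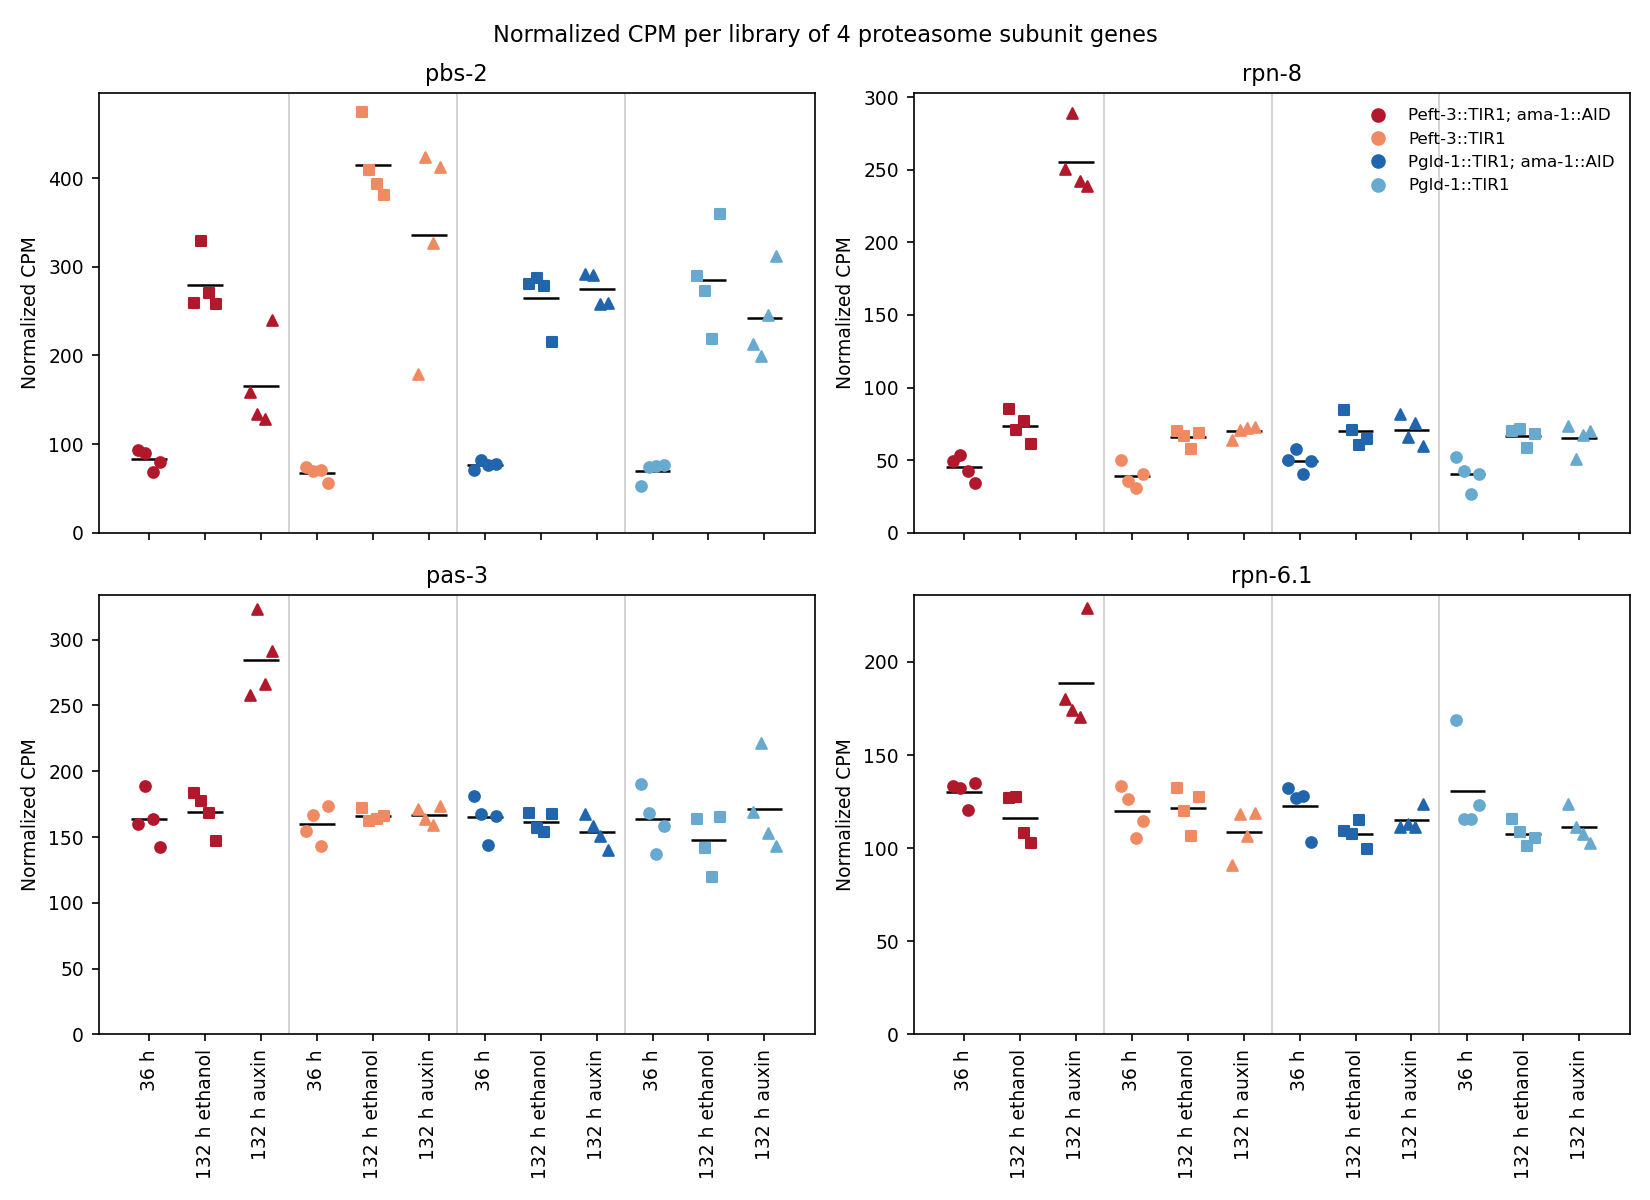
Normalized CPM per library of pbs-2, rpn-8, pas-3 and rpn-6.1 at 36 h (circles), 132 h with ethanol (squares) and 132 h with auxin (triangles) in 4 strains. Bars are means over 4 replicates. The auxin libraries of the somatic degron strain are low in pbs-2 relative to ethanol and high in the other 3 genes.

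pas-3 and rpn-6.1, which did not pass the test over time in any strain, were higher with auxin. pas-3 was 258, 323, 266 and 291 normalized CPM with auxin against 184, 177, 169 and 147 with ethanol, and rpn-6.1 was 180, 174, 171 and 229 against 127, 127, 108 and 103, with no overlap for either gene. The log2 fold changes were 0.67 (SE 0.15, edgeR adjusted p = 0.000382) and 0.65 (SE 0.15, adjusted p = 0.000662). On the spike-in scale they were −0.54 and −0.65 and did not pass the test. rpn-6.1 has a paralogue, rpn-6.2, with which reads could be split.

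Of the other genes at the ends of their families, pas-5 (alpha ring, chromosome I, 10566350 to 10567300, plus strand) was 173, 200, 187 and 284 normalized CPM with auxin and 128, 115, 102 and 96.4 with ethanol, without overlap (log2 fold change 0.73, SE 0.21, edgeR adjusted p = 0.0071). rpt-2 (ATPase ring, chromosome V, 6016059 to 6017669, minus strand) was 176, 239, 215 and 306 against 133, 155, 145 and 135, also without overlap (0.64, SE 0.17, adjusted p = 0.00364). pbs-7 (beta ring, chromosome I, 8695205 to 8696301, minus strand), with 76.1, 116, 93.1 and 150 against 91.5, 87.7, 68.8 and 64.3, overlapped and did not pass (0.55, SE 0.26, adjusted p = 0.108).

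The genes at the low end were close to 0 in this comparison. pas-7 (alpha ring, chromosome II, 10098782 to 10099854, minus strand) was 104, 124, 106 and 154 normalized CPM with auxin against 122, 115, 103 and 108 with ethanol (−0.01, SE 0.15). rpt-1 (ATPase ring, chromosome V, 11980534 to 11982397, minus strand) was 132, 143, 153 and 213 against 178, 156, 153 and 161 (0.04, SE 0.15). rpn-5, a scaffold subunit of the cap (chromosome II, 4696418 to 4698427, minus strand), was 85.3, 109, 78.8 and 119 against 111, 113, 91.4 and 92.7 (0.01, SE 0.19). All 3 pairs of groups overlapped.

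No proteasome subunit gene was called with auxin in the other 3 strains (background 0.0% in each direction). In the somatic control the 32 log2 fold changes lay between −0.32 and 0.13, in the germline degron strain between −0.10 and 0.19 and in the germline control between −0.15 and 0.25. At an unadjusted p under 0.05, edgeR's quasi-likelihood test counted 0, 0 and 2 of the 32 genes, with no share over all genes given beside them. DESeq2 called 0 in each strain. The difference between strains was tested itself as the auxin effect in the somatic degron strain minus that in the somatic control. Of the 32 genes, 12 were called higher (background 8.31%) and 0 lower (background 12.5%), and the median difference was 0.51 beside 0.06 over all genes. Since W1 did not overlap between auxin and ethanol in the somatic degron strain, W1 cannot be fully parted from auxin in this test either. With W1 estimated in the compared libraries alone, 1 of the 12 calls was left (backgrounds 3.61% higher and 5.36% lower). rpn-8 had the largest difference (1.68, SE 0.25, edgeR adjusted p = 1.57e-06), followed by pas-5 (0.88) and rpn-6.1 (0.82). pbs-2 had −0.65 (adjusted p = 0.1), and −0.78 (adjusted p = 0.0277) without the library that stood apart, where 11 genes were called higher (background 9.5%) and 1 lower (background 12.7%). On the spike-in scale 0 genes were called higher (background 1.13%) and 2 lower (background 30.3%), with a median of −0.66 beside −1.14 over all genes.

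Set against 36 h, all 32 genes were called higher at 132 h with auxin in the somatic degron strain and none lower (backgrounds 23.8% and 24.2%), and in all 32 the auxin libraries lay above the 36 h libraries (background 18.3%). The log2 fold changes lay between 0.38 and 2.49 with a median of 1.24, beside 0.09 over all genes tested. Without the library that stood apart, all 32 were again called higher (backgrounds 22.1% higher and 22.1% lower) with a median of 1.13. With ethanol, which shares the 36 h libraries, the median was 0.85. rpn-8 rose by 2.49 with auxin and 0.73 with ethanol, and pbs-2 by 0.91 and 1.88. On the spike-in scale, 13 genes were called higher and none lower (backgrounds 9.15% and 26.4%), with a median of 0.75 beside −0.40 over all genes, and without that library 14 (backgrounds 8.73% and 19.2%), with medians of 0.83 and −0.25. No gene was called between the somatic degron strain and the somatic control at 36 h (backgrounds 0.167% higher and 0.0579% lower). There, 5 genes had an unadjusted p under 0.05 by edgeR, all higher. The share over all genes at that unadjusted p is not given here, so these 5 are not read as a difference. DESeq2 called 0 and no gene was called on the spike-in scale (background 0.0257% in each direction).

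Core and cap were set beside each other as the mean log2(CPM + 1) over core genes minus that over cap genes in each library, as a description without a test. At 36 h the difference lay between −0.25 and 0.01 (median −0.13, 16 libraries). With ethanol at 132 h the group means were −0.08, −0.03, −0.06 and −0.09 in the somatic degron strain, the somatic control, the germline degron strain and the germline control, and the 36 h means were −0.10, −0.12, −0.15 and −0.15. With auxin in the somatic degron strain it was −0.28 ± 0.09 (SD, n = 4) against −0.08 ± 0.06 with ethanol, and every auxin library lay below every ethanol library. Without the library that stood apart, it was −0.32 ± 0.04 (SD, n = 3). Among the genes listed, the core gene pbs-2 had the lowest log2 fold change with auxin in this strain and the cap gene rpn-8 the highest. Both genes lower this mean difference, which was not computed without them, so it does not show a shift shared by core or cap genes. With auxin in the other strains the means lay between −0.12 and −0.06 and the libraries overlapped those with ethanol. In the somatic degron strain the medians by family with auxin were 0.52 for pas, 0.12 for pbs, 0.51 for rpt and 0.51 for rpn, and the pbs family was the one in which no gene was called higher and 1, pbs-2, was called lower.

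**Figure D5:**
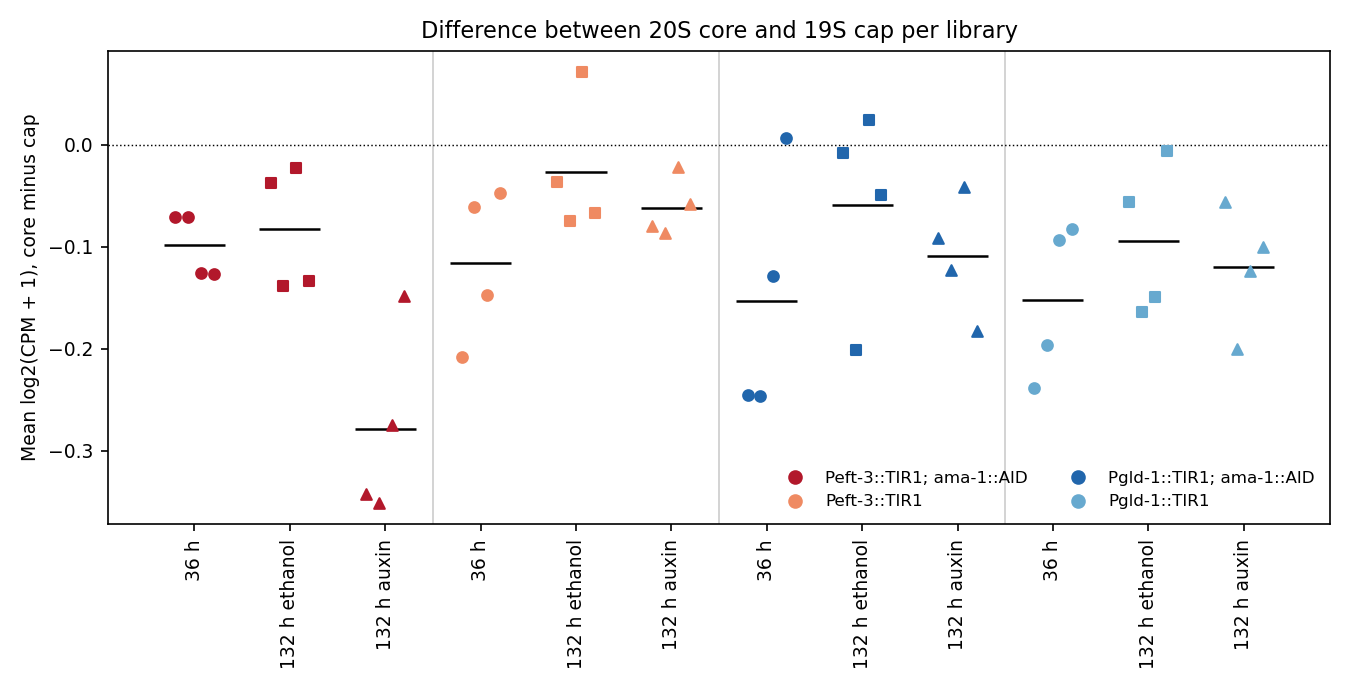
Mean log2(CPM + 1) of the 14 core genes minus that of the 18 cap genes per library, by strain and condition. Points are libraries and bars are means over 4 replicates. The 4 auxin libraries of the somatic degron strain lie below its ethanol libraries.

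Other genes of the pathway were taken from lists. The backgrounds over time were those above (higher 15.2%, 20.5%, 17% and 18.8%, lower 15.1%, 23.9%, 17.1% and 19.4%), and with auxin 13.3% higher and 16.1% lower. Of 7 partners and regulators of the proteasome, 3, 4, 4 and 3 were called higher at 132 h with ethanol in the somatic degron strain, the somatic control, the germline degron strain and the germline control, and 0, 0, 1 and 1 lower. Of these 7, 1 was called higher with auxin in the somatic degron strain. This was rpn-6.2, whose level was low (6.45, 16.1, 10.6 and 4.14 normalized CPM against 4.79, 4.34, 2.95 and 4.13 with ethanol, edgeR adjusted p = 0.00254). Without the library that stood apart, the numbers of calls with auxin in all 4 lists were the same.

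Of the 5 genes of the SKN-1A pathway, 0, 1, 1 and 0 were called higher with time in those strains, and none lower. With auxin in the somatic degron strain, 3 of 5 were called higher and none lower, as were 3 of 5 in the difference from the somatic control (background 8.31%). skn-1, the transcription factor gene, which also encodes other isoforms, was 556, 526, 518 and 360 normalized CPM with auxin and 296, 297, 368 and 320 with ethanol, overlapping through the library that stood apart (log2 fold change 0.87, SE 0.17, edgeR adjusted p = 8.28e-05). sel-11, a ubiquitin ligase of the endoplasmic reticulum, was 234, 195, 156 and 168 against 99.6, 92.0, 81.5 and 98.6 without overlap (0.97, SE 0.21, adjusted p = 0.000293). sel-1, its partner, rose by 0.51 (SE 0.13, edgeR adjusted p = 0.00266). ddi-1 and png-1 were not called with auxin in this strain. Raw counts of ddi-1 were 501, 707, 515 and 892 with auxin against 690, 580, 449 and 458 with ethanol. Those of png-1 were 256, 131, 285 and 115 against 257, 101, 176 and 155. On the spike-in scale none of the 5 was called higher and 2 were called lower (backgrounds 2.67% and 52.4%).

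Of 11 genes of ubiquitin and the p97 ATPase, 7, 9, 7 and 8 were called higher with time and 1, 2, 2 and 2 lower. In the somatic degron strain with auxin, ubql-1, a ubiquilin, was called higher (0.59) and ubq-2, a ubiquitin fusion gene (−0.62), and npl-4.2, a p97 cofactor gene (−0.42), lower. npl-4.2 is near identical to npl-4.1, so its counts are uncertain. Of 6 genes of the COP9 signalosome, a complex related to the cap, 3, 5, 2 and 4 were called higher with time and 1 lower in each strain. With auxin in the somatic degron strain, csn-2 (1.09) and csn-4 (0.83) were called higher and csn-1 (−0.67, edgeR adjusted p = 0.0497) lower.

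Several values rest on shared sequence. Exons of rpn-7 share 394 bp with those of nemt-1 on the other strand, of rpn-9 140 bp with T06D8.12, of rpt-4 103 bp with rpoa-49 and of pbs-4 73 bp with mrrf-1, and pbs-7 shares 70 bp with K07A12.5 on the same strand. In 6 more genes (rpn-10, rpt-2, rpt-6, pbs-3, rpn-11 and pas-7) the overlap was 4 to 32 bp, and skn-1 shares 41 bp with csn-5. The strand setting of the counting was not given in the sources used here, so reads from these pairs could not be told apart, and counts in shared exons are uncertain.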

How the data were processed

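Per the labels and the study's methods, the authors added ERCC spike-ins to total RNA, selected poly-A RNA, made NEBNext Ultra II libraries (50 bp read pairs), mapped them with bowtie 1.2.2 to WS273 and counted reads per gene with HTSeq 0.11.2. The deposited values are raw counts of 46911 genes and 92 spike-ins, and 46857 gene identifiers matched WBcel235. Groups and replicate numbers came from the labels, whose growth protocol describes separate plates for each biological replicate. All 48 libraries entered 1 edgeR 4.0.16 quasi-likelihood fit (R 4.3.3) of 15549 protein-coding genes, each over 10 counts in 4 libraries or more. It used the upper quartile, W1 by the RUVg formula (k = 1) over 62 spike-ins and a Benjamini-Hochberg threshold of 0.05. The fit was also run on simulated counts with a small set of changed genes and no effect of W1 on genes. That run cannot show how the fit handles W1 that differs between groups. The study used the likelihood ratio test. Alternatives included DESeq2 1.42.0, TMM, spike-in scaling and each library left out, with the dispersion trend of all 48. Values per library were printed for the highest and lowest gene of each family with somatic auxin, and for genes called against the others. The members and lists were chosen with earlier results of these data known. Promoter sequences were not analysed here.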

Additional observations from a re-analysis of the deposited data

Results flagged for a closer look

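Among 144 groups of 4 libraries examined for the genes given per library, the share of counts and the core minus cap difference, 12 held a library far from the other 3, and chance gives about 5% of groups. In the somatic degron strain with auxin, replicate 4 had 0.898% of counts on proteasome subunit genes (others 0.454% to 0.505%) and a normalized CPM of 229 for rpn-6.1 (others 171 to 180). In the somatic control with ethanol, replicate 3 had 0.388% of counts (others 0.488% to 0.500%) and 125 for pas-7, and at 36 h replicate 1 had 36.0 for pas-7. In the germline degron strain, replicate 1 at 36 h had 44.8 for pas-7, replicate 4 with auxin 124 for rpn-6.1 and replicate 4 with ethanol 215 for pbs-2. In the germline control, replicate 1 at 36 h had 53.1 for pbs-2 and 169 for rpn-6.1, replicate 4 with ethanol had 145 for rpt-2 and replicate 1 with ethanol 76.2 for pbs-7.

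The effect of auxin differed between the somatic degron strain and the somatic control for 12 genes in the edgeR test of the difference itself. The log2 differences were 0.67 for pas-1, 0.66 for pas-3, 0.88 for pas-5, 0.80 for pas-6, 0.74 for rpt-3, 0.58 for rpt-4, 0.62 for rpn-1, 0.82 for rpn-6.1, 1.68 for rpn-8, 0.79 for rpn-9, 0.76 for rpn-10 and 0.68 for rpn-11. With W1 estimated in the compared libraries alone, 1 of the 12 was called.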

How the results depend on the processing

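Scaling to spike-ins reversed the direction with auxin in the somatic degron strain (19 genes, all lower, and 12 without replicate 4 of the auxin group) and in its difference from the somatic control (2 and 1, all lower), and left 13 and 14 of 32 called against 36 h. By that scaling, without and with that replicate left out, the log2 change with auxin was −0.63 and −0.58 for rpt-2, −1.39 and −1.34 for rpt-1, −1.38 and −1.29 for rpn-5, −0.41 and −0.37 for pas-5, −0.54 and −0.39 for pas-3 and −0.65 and −0.57 for rpn-6.1, and −0.84 for pbs-7 with all libraries. The difference from the somatic control was −0.11 and −0.073 for pas-5, −0.38 and −0.23 for pas-3 and −0.32 and −0.24 for rpn-6.1. With W1 estimated in the libraries compared alone, 2 genes were called with auxin, 1 in the difference between strains and 13 over time in the somatic control. At an adjusted p under 0.01, 5 were called in that difference and 0 between the strains with ethanol, where DESeq2 and the fit of those libraries called 2, spike-ins 0 and leaving out each library 0 to 2. Leaving out each library gave 13 to 19 calls with auxin, 9 to 14 in the difference between strains, 32 to 32 against 36 h, and over time 26 to 29, 28 to 30, 24 to 27 and 22 to 28 in the somatic degron, somatic control, germline degron and germline control strains. With the median over genes, core minus cap changed by −0.12 for auxin against ethanol in the somatic control, beside −0.03 with the mean. Per the labels, the strains were bleached in parallel for each biological replicate, but no label says that 1 number marks 1 preparation, and in no comparison did every same-numbered pair correlate above 0.1. With the replicate block and W1, 17 genes were called with auxin and 14 in the difference between strains, and 19 in the latter with the block without W1 (16 without either), an alternative chosen after seeing the data, as were the fits that left out a replicate 4 and changed the scaling or W1. Of 352 recomputed counts of calls and core minus cap differences, 331 stayed close to the reported value, 17 moved and 4 reversed. Many of these left out a single library or compared no calls with no calls, so the tally says little about how firm the auxin result is. Shares over all genes tested are not given for the replicate block, DESeq2, the threshold of 0.01 or the ranges over left-out libraries. Those counts therefore cannot be told apart from a change in calling over all genes. The causes were not tested. Depth did not limit these genes, which had at least 80 counts in every library.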
